A study of Mus musculus with 6 samples.

Results

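The EGF receptor family and its ligands were followed in TRAMP-C2 cells through 8 genes, chosen by symbol among the 54446 genes of the count table: the receptors Egfr, Erbb2 and Erbb3 and the ligands Hbegf, Areg, Ereg, Tgfa and Btc. TRAMP-C2 is an established prostate cancer line from a male mouse on the C57BL/6 background, derived from the TRAMP model, in which SV40 T antigen is expressed in the prostate epithelium. The cells were left untreated (control) or exposed for 24 h to 2 µM oxaliplatin or 2 µM cisplatin. Each of these 3 groups held 2 poly(A) RNA libraries. All cells were grown in a medium with fetal bovine serum, NuSerum IV, bovine insulin and a steroid supplement. Both drugs are platinum complexes that form adducts with DNA. Cisplatin carries ammine groups and chlorides on the platinum atom, whereas oxaliplatin carries a diaminocyclohexane and an oxalate. Because the line was grown in culture as 1 cell line, the results describe these cells and not prostate tumors at large.

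Egfr, Erbb2 and Erbb3 encode transmembrane receptors that pair with each other once a ligand binds and then relay signals through the RAS, ERK and PI3K cascades. Erbb2 has no known ligand of its own and acts as a partner, and Erbb3 has a weak kinase and signals through its partners. The ligands are made as membrane-anchored precursors and are released by proteases of the ADAM family, and in prostate epithelium the pathway is known for its role in growth and survival.

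The libraries held between 21345312 and 24041767 counts. A count of 0 still allows a level of 3 counts, which is 0.125 to 0.141 CPM (counts scaled by library size), for counting error only. The labels do not say whether the libraries came from separate cultures, so that p values measure only the spread between these samples, which may be technical. Among marker genes of the line, 5 of 9 luminal epithelial markers had at least 10 counts in every library, while Epcam, Hoxb13, Pbsn and Tmprss2 had at most 3. All 6 mesenchymal markers were present, with a summed level of 13037 to 13398 CPM in control, 11982 to 12373 in oxaliplatin and 11165 to 11646 in cisplatin. Of the 4 basal markers, Krt5 was at most at 3 counts in each library. Krt14 had expected counts of 78.8 and 91.3 in control, 163 and 121 in oxaliplatin, and 111.5 and 112.4 in cisplatin. Krt15 had 7 to 25 expected counts per library and Trp63 3 to 19. The summed luminal markers were at 187 to 193 CPM in control, 177 in both oxaliplatin libraries and 190 to 195 in cisplatin. The summed basal markers (4 genes) were at 5.47 to 5.82 CPM in control, 6.30 to 7.54 in oxaliplatin and 5.47 to 5.82 in cisplatin. Of the 3 neuroendocrine markers, 2 (Chga and Insm1) had at most 3 counts, and Syp had 7.65 to 23.45 expected counts per library. The neuroendocrine list sums were 0.930 to 0.951 CPM in control, 0.756 to 1.02 in oxaliplatin and 0.342 to 0.644 in cisplatin. Of 6 leukocyte and endothelial markers, Ptprc, Adgre1, Cd3e and Cdh5 had at most 3 counts in every library. Cd68 had 30 to 51 expected counts per library and Pecam1 1 to 8. The whole list summed to 1.56 to 2.06 CPM in control, 1.51 to 1.71 in oxaliplatin and 2.32 to 2.66 in cisplatin. The part of these differences in the results below was not tested. In bulk samples, fewer cells with a transcript and less transcript per cell cannot be told apart.

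In GRCm38, Egfr (ENSMUSG00000020122) lies on chromosome 11 from 16752203 to 16918158 on the plus strand, and Erbb2 (ENSMUSG00000062312) on the same chromosome from 98412470 to 98437716, also on the plus strand. Erbb3 (ENSMUSG00000018166) occupies 128567523 to 128589652 on the minus strand of chromosome 10. Hbegf (ENSMUSG00000024486) is on the minus strand (its position is not given here), and Tgfa (ENSMUSG00000029999) on the plus strand of chromosome 6 from 86195223 to 86275719. The other 3 ligand genes are neighbors on chromosome 5. Ereg (ENSMUSG00000029377) runs from 91074622 to 91093646 on the plus strand, Areg (ENSMUSG00000029378) follows 46.0 kb downstream from 91139599 to 91148432, and Btc (ENSMUSG00000082361) lies 209 kb further on the minus strand from 91357261 to 91402994. The stretch from Ereg to Btc spans 328 kb. An antisense gene, Gm19610, shares 141 bp of exon with Ereg and had 7.10 to 26.1 expected counts per library, and Erbb2 and Tgfa share 9 bp and 118 bp of exon with opposite-strand genes (Mien1, and Gm43917 at 0 counts).

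Promoter sequences, taken as the 250 bases before the RefSeq start site (GRCm38.p6), were present for 5 of the 8 genes. Those of Egfr, Erbb2 and Btc are shown since these 3 genes passed a test in at least 1 comparison and did not move alike. All are written 5′ to 3′ along the gene, and capitals mark a GC box.
Egfr (chr11:16751953-16752202, plus strand): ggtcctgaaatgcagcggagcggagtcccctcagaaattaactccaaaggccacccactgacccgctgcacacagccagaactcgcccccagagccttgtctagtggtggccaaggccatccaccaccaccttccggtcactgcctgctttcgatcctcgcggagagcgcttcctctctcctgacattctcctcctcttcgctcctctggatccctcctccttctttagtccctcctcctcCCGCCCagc
Erbb2 (chr11:98412234-98412483, plus strand): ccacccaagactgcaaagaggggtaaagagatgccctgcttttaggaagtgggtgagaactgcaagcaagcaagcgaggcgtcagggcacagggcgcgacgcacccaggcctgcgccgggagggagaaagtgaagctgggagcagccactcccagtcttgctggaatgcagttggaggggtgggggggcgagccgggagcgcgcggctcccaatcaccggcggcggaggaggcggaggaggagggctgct
Btc (chr5:91402995-91403244, minus strand): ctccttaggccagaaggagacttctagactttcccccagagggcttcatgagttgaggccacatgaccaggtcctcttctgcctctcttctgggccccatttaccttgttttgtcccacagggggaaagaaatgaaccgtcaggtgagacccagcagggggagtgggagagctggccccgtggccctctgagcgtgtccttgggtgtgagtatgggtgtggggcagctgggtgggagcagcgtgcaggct
Both strands were searched for 4 short motifs, namely AP-1 (TGANTCA), CRE (tgacgtca), the GC box (GGGCGG) and the TATA box (TATAAA). None overlapped another in the promoters searched here. Egfr held 1 GC box, read on the opposite strand from base 9 to base 4 before the start. Erbb2 and Btc held none of these letters in their windows. Of the ligands not shown, Areg held a CRE, a GC box and a TATA box within the last 61 bases, and Tgfa held 2 GC boxes. Over 32851 mouse promoters of the same length, 32.7% held a GC box, 12.4% a TATA box, 6.75% an AP-1 site and 1.55% a CRE. The GC content of the 3 printed promoters was 60.8% (Egfr), 66.0% (Erbb2) and 59.6% (Btc), against a median of 52.4% over all promoters.

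The first question was whether receptor transcripts differed after each drug. Egfr was the most abundant of the 8 genes. Its normalised counts (counts divided by a library size factor) were 5255 and 5579 in control, 5188 and 4973 in oxaliplatin, and 3994 and 4140 in cisplatin. Both cisplatin libraries lay below all others, and both oxaliplatin libraries lay just below the lower control library. The group means were 5417 ± 229, 5080 ± 152 and 4067 ± 103 (SD, n = 2 each). Egfr fell after cisplatin to 0.751 of its control level (95% interval 0.698 to 0.807, log2 -0.41, SE 0.05, DESeq2 adjusted p = 4.33e-13). After oxaliplatin its log2 fold change was -0.09 (SE 0.05, DESeq2 adjusted p = 0.209), with an interval of -0.20 to 0.01. The call after cisplatin was kept in 14 of 14 alternative analyses.

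Erbb2, the receptor without a ligand, had normalised counts of 1054 and 1022 in control, 868 and 811 in oxaliplatin, and 801 and 875 in cisplatin. The 4 drug-treated libraries all lay below the controls and overlapped with each other. The means were 1038 ± 23.1 in control, 839 ± 40.7 in oxaliplatin and 838 ± 52.3 in cisplatin (SD, n = 2). Erbb2 fell after oxaliplatin (log2 -0.31, SE 0.10, DESeq2 adjusted p = 0.0105) and after cisplatin (log2 -0.31, SE 0.10, DESeq2 adjusted p = 0.00788). The log2 fold changes kept their size when 1 library was left out, at -0.36 to -0.26 for oxaliplatin and -0.37 to -0.24 for cisplatin, but the calls were lost without the libraries given here. For oxaliplatin the DESeq2 adjusted p became 0.166 without control 1, 0.0974 without control 2, 0.0883 without oxaliplatin 1 and 0.274 without oxaliplatin 2. For cisplatin it became 0.129 without control 1, 0.077 without control 2 and 0.240 without cisplatin 1. The log2 fold changes stayed negative in all 14 alternatives of each comparison.

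Erbb3 was low, with normalised counts of 43.6 and 40.4 in control, 35.3 and 44.0 in oxaliplatin, and 46.1 and 62.4 in cisplatin. The oxaliplatin libraries overlapped with the controls, and the cisplatin libraries lay above them. Neither difference passed the test, with log2 fold changes of -0.08 for oxaliplatin (SE 0.42, DESeq2 adjusted p = 0.923) and 0.37 for cisplatin (SE 0.41, DESeq2 adjusted p = 0.546). The 95% intervals, from -0.90 to 0.73 and from -0.44 to 1.17, do not exclude differences of that size in either direction.

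**Figure D1:**
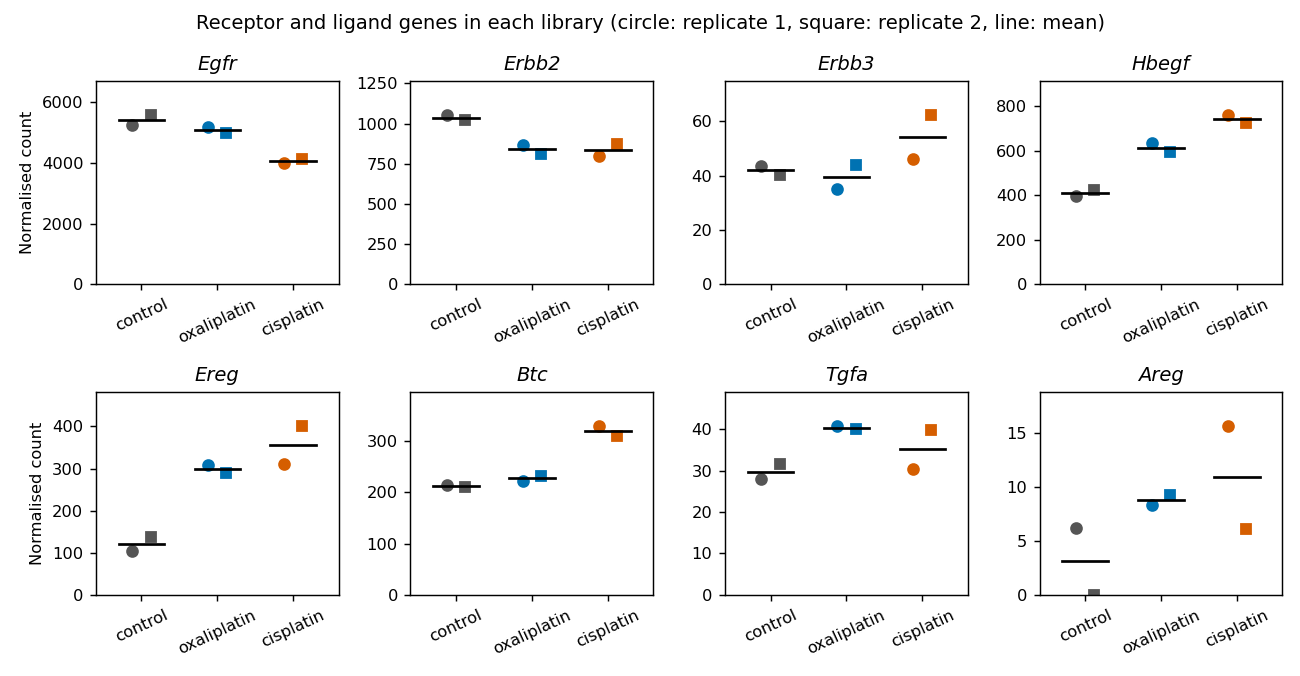
Normalised counts (y axis, from 0, a separate scale per gene) of the 8 genes in the 2 libraries of each group, with circles for replicate 1, squares for replicate 2 and lines for means. Ereg and Hbegf are higher in all 4 drug-treated libraries than in the controls, Btc in the cisplatin libraries above all others, and Egfr is lowest in cisplatin at 3994 and 4140.

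Among the ligands, Ereg had the largest differences from control. Ereg encodes epiregulin, a ligand that binds Egfr and is often made at sites of inflammation and repair. Its normalised counts were 104 and 137 in control, 308 and 289 in oxaliplatin, and 310 and 402 in cisplatin. The lowest drug-treated library stood above the higher control library by more than the spread within any group. The means were 120.4 ± 23.5, 298 ± 13.9 and 356 ± 65.3 (SD, n = 2). Ereg rose 2.48-fold after oxaliplatin (95% interval 1.85 to 3.32, DESeq2 adjusted p = 3.66e-08) and 2.95-fold after cisplatin (2.20 to 3.96, DESeq2 adjusted p = 1.33e-11). Its log2 fold changes were 1.31 (SE 0.22) and 1.56 (SE 0.22), and both calls were kept in 14 of 14 alternatives. The antisense gene Gm19610 had expected counts of 25 and 7.10 in control, 23.0 and 26.1 in oxaliplatin and 24.8 and 17.3 in cisplatin, below those of Ereg in each library. In every library the expected counts of Ereg and Gm19610 added up to a whole number, as when RSEM divides shared reads between genes. The values of Gm19610 are therefore not a measurement separate from Ereg. The part of this division in the Ereg differences was not tested.

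Hbegf encodes heparin-binding EGF-like growth factor, a ligand of Egfr that is induced in many cells by stress. It had normalised counts of 395 and 424 in control, 636 and 593 in oxaliplatin, and 761 and 723 in cisplatin. The 3 groups did not overlap, with control lowest and cisplatin highest. Means were 409.5 ± 20.0, 614 ± 30.7 and 742 ± 26.4 (SD, n = 2). Hbegf rose 1.5-fold after oxaliplatin (95% interval 1.27 to 1.77, log2 0.59, SE 0.12, DESeq2 adjusted p = 1.58e-05). After cisplatin it rose 1.81-fold (1.54 to 2.13, log2 0.86, SE 0.12, DESeq2 adjusted p = 1.93e-11). Both calls were kept in 14 of 14 alternatives.

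Btc encodes betacellulin, a ligand of Egfr and Erbb4. Its normalised counts were 215 and 210 in control, 223 and 232 in oxaliplatin, and 330 and 310 in cisplatin. The cisplatin libraries were the highest, and the oxaliplatin libraries lay only slightly above the controls. Btc rose 1.51-fold after cisplatin (95% interval 1.2 to 1.90, log2 0.59, SE 0.17, DESeq2 adjusted p = 0.0026), from a mean of 212 ± 3.50 to 320.2 ± 14.4 (SD, n = 2). After oxaliplatin the mean was 228 ± 6.71 and the log2 fold change 0.10 (SE 0.17, interval -0.24 to 0.44, DESeq2 adjusted p = 0.749). Leaving out 1 library gave log2 fold changes of 0.55 to 0.64 for cisplatin, but the call was lost without any 1 of the 4 libraries compared, with a DESeq2 adjusted p of 0.0538 without control 1, 0.0796 without control 2, 0.139 without cisplatin 1 and 0.0727 without cisplatin 2.

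Tgfa and Areg were the least abundant ligands. Tgfa encodes TGF-α, which is known to act on Egfr in epithelia, and had normalised counts of 28.0 and 31.5 in control, 40.8 and 39.9 in oxaliplatin, and 30.4 and 39.9 in cisplatin. The oxaliplatin libraries lay above the controls, and the cisplatin libraries overlapped with them. The log2 fold change was 0.44 for oxaliplatin (SE 0.46), to which DESeq2 gave no adjusted p after its filter on low means, and 0.24 for cisplatin (SE 0.46, DESeq2 adjusted p = 0.755). Areg, which encodes amphiregulin, was the only gene of the 8 that did not pass the filter of 10 counts in 2 libraries. Its expected counts were 6 and 0 in control, 9 and 9 in oxaliplatin, and 16 and 6 in cisplatin, and no test was made.

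Of the 7 genes tested, 3 passed after oxaliplatin, where 20.2% of all 14956 tested genes did. These were Ereg and Hbegf, higher (10.7% of all genes), and Erbb2, lower (9.5% of all genes). After cisplatin 5 of the 7 passed, against 28.1% of all genes, with Ereg, Hbegf and Btc higher (15.7%) and Egfr and Erbb2 lower (12.4%). The median log2 fold change of the 7 genes was 0.10 for oxaliplatin and 0.37 for cisplatin, beside -0.0029 and -0.00083 over all genes. The count for cisplatin was 3 without control 1, without control 2 or without cisplatin 1, and 4 without cisplatin 2. Both comparisons use the same control libraries, so that the values of the drugs against control are not independent of each other.

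The drugs were also compared with each other, in the same fit, in which the control libraries enter the filter, the scaling and the estimate of the spread. They were set side by side at the same dose and time, as the only pair of compounds, and 2 of the 7 genes differed, against 19.9% of all tested genes. Egfr was higher in oxaliplatin than in cisplatin (8.62% of all genes were), by 1.25-fold with a 95% interval of 1.16 to 1.34 (log2 0.32, SE 0.05, DESeq2 adjusted p = 5.74e-08), and this call was kept in 14 of 14 alternatives. Btc was lower in oxaliplatin (11.3% of all genes were), at 0.710-fold of its cisplatin level with an interval of 0.565 to 0.893 (log2 -0.49, SE 0.17, DESeq2 adjusted p = 0.0174). The Btc call was lost without each of the 6 libraries, with a DESeq2 adjusted p of 0.058 without control 1, 0.057 without control 2, 0.283 and 0.185 without oxaliplatin 1 and 2, and 0.307 and 0.169 without cisplatin 1 and 2. Its log2 fold change stayed at -0.54 to -0.45. The count was then 1 in each case, and Egfr alone passed.

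For the other members tested, Hbegf, Ereg, Erbb2, Erbb3 and Tgfa, no difference between the drugs passed the test. DESeq2 gave Tgfa no adjusted p here. Hbegf had a log2 fold change of -0.27 for oxaliplatin over cisplatin (interval -0.50 to -0.05, DESeq2 adjusted p = 0.0669), and the edgeR quasi-likelihood test called it (adjusted p = 0.011). Ereg was at -0.25 (interval -0.65 to 0.14, DESeq2 adjusted p = 0.402). Erbb2 had the narrowest interval of these genes, from -0.19 to 0.20 around a log2 value of 0.0033 (DESeq2 adjusted p = 0.987). The intervals of Erbb3 (-1.26 to 0.35) and Tgfa (-0.68 to 1.08) were wide. The median of the 7 genes was -0.25, beside -0.0033 over all genes.

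**Figure D2:**
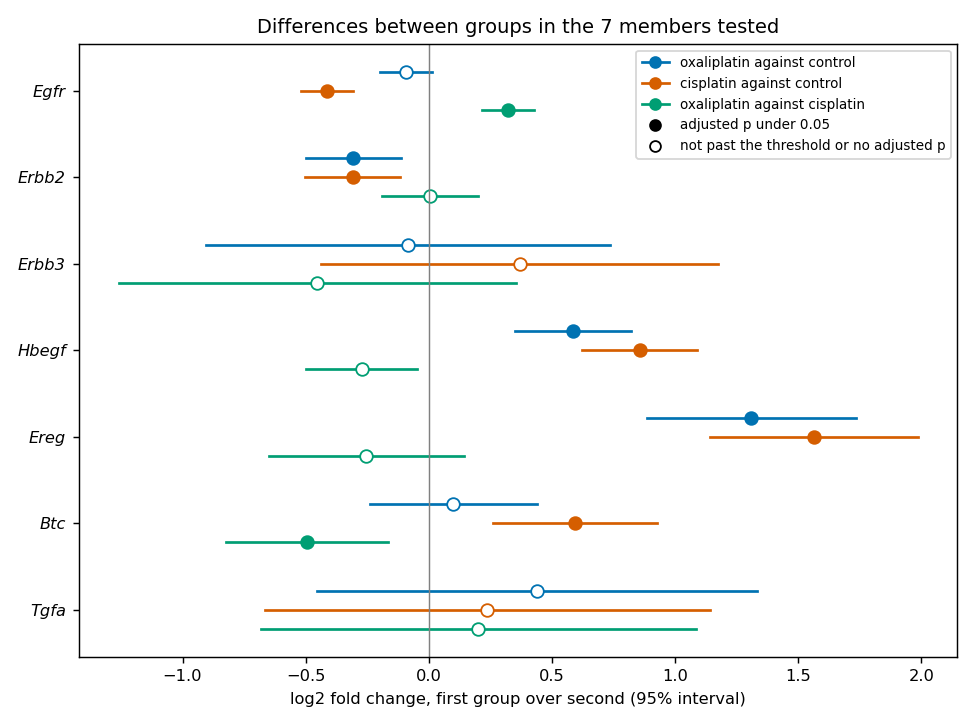
Log2 fold changes (x axis, points) with 95% intervals (lines) of the 7 genes tested, for oxaliplatin against control (blue), cisplatin against control (orange) and oxaliplatin against cisplatin (green). Filled points had a DESeq2 adjusted p under 0.05. Ereg has the largest values against control (1.31 and 1.56), and Egfr and Btc are the filled points between the drugs (0.32 and -0.49).

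To compare levels between genes, normalised counts were divided by the length of the union of a gene's exons, in kb. On this scale the control means ran in the order Egfr (478 ± 20.3), Erbb2 (199 ± 4.43), Hbegf (84.7 ± 4.14), Btc (47.0 ± 0.774), Ereg (29.2 ± 5.68), Erbb3 (6.98 ± 0.375), Tgfa (4.59 ± 0.382) and Areg (2.56 ± 3.62, SD, n = 2). Of these neighbors, Tgfa and Areg were the only pair whose libraries overlapped. The order changed in both drug groups. In oxaliplatin Ereg (72.3 ± 3.36 per kb) stood above Btc (50.3 ± 1.49), and Areg (7.23), Erbb3 (6.59) and Tgfa (6.22) overlapped as neighbors. In cisplatin Ereg (86.2 ± 15.8 per kb) was again above Btc (70.8 ± 3.18), Hbegf (154 ± 5.46) overlapped with Erbb2 (161 ± 10.0), and Erbb3 (9.02), Areg (8.98) and Tgfa (5.42) overlapped as neighbors. With the longest transcript as the length, Hbegf ranked 2 and Erbb2 ranked 3 in both drug groups. In oxaliplatin Tgfa then ranked 6, Areg 7 and Erbb3 8.

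Added up per kb, the 5 ligands came to 164 and 172 in the control libraries, 269 and 258 in oxaliplatin, and 323 and 327 in cisplatin. The 3 receptors came to 674 and 695, 631 and 602, and 514 and 544 in the same order. The ligand sums were thus lowest and the receptor sums highest in control, with no overlap between groups in either sum. Egfr made up 67.2% to 72.9% of the receptor sum in every library. Hbegf was the leading ligand throughout, with 45.8% to 50.9% of the ligand sum. The share of Ereg was 15.3% and 19.3% in control, 27.8% and 27.1% in oxaliplatin, and 23.2% and 29.8% in cisplatin, and that of Btc was 29.0% and 27.0%, 18.3% and 20.0%, and 22.6% and 21%. These sums follow from the 8 genes above and were not tested. The sums and shares depend on the length used, here the union of exons. With the longest transcript, the control mean of Hbegf was 142 per kb in place of 84.7.

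**Figure D3:**
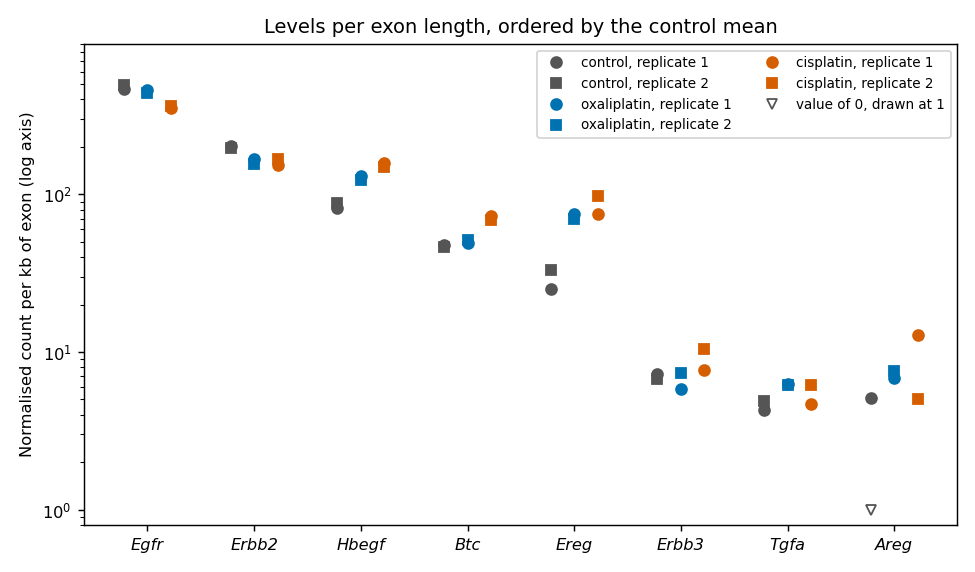
Normalised counts per kb of exon (y axis, log scale) of the 8 genes, ordered by the control mean, with circles for replicate 1 and squares for replicate 2 of each group. Egfr is highest in every library (353 to 493), Ereg is below Btc in control and above it after either drug, and the control library with 0 Areg counts is drawn as an open triangle at 1.

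Of 7 further members of the receptor and ligand family, Erbb4 and Nrg3 had 0 counts in every library and Epgn at most 5. Nrg2 and Nrg4 passed the filter at no more than 16.0 expected counts in a library and got no adjusted p from DESeq2. Egf, the family's namesake ligand, had expected counts of 30 and 47 in control, 50 and 43 in oxaliplatin, and 22 and 19 in cisplatin. Its cisplatin libraries were the lowest, and its log2 fold change there was -0.92 (SE 0.49, DESeq2 adjusted p = 0.144). DESeq2 gave Egf no adjusted p in the other comparisons. Egf was named after its values were seen, and the edgeR quasi-likelihood test called it lower after cisplatin (adjusted p = 0.0341) and higher in oxaliplatin than in cisplatin (log2 1.14, adjusted p = 0.0156). Nrg1, which encodes neuregulin, a ligand of Erbb3 and Erbb4, had normalised counts of 645 and 664 in control, 849 and 748 in oxaliplatin, and 547 and 525 in cisplatin. The groups did not overlap, and control lay between the drugs. Nrg1 was higher in oxaliplatin than in cisplatin (log2 0.58, SE 0.12, DESeq2 adjusted p = 1.08e-05), a call kept in 14 of 14 alternatives. Against control it rose after oxaliplatin (log2 0.29, SE 0.11, DESeq2 adjusted p = 0.0486) and fell after cisplatin (log2 -0.29, SE 0.12, DESeq2 adjusted p = 0.0446). Neither of these calls was kept when any 1 library was left out. The DESeq2 adjusted p without control 1, control 2, oxaliplatin 1, oxaliplatin 2, cisplatin 1 and cisplatin 2 was 0.282, 0.209, 0.564, 0.127, 0.136 and 0.139 for oxaliplatin, and 0.169, 0.269, 0.115, 0.111, 0.197 and 0.318 for cisplatin.

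Of the 9 genes for ligand shedding (ADAM proteases, the iRhoms and the ADAM inhibitor Timp3), 2 rose and 2 fell after oxaliplatin, where 20.2% of all tested genes were called, and 3 rose and 1 fell after cisplatin, where 28.1% were. Set against cisplatin, 2 were higher and 2 lower in oxaliplatin (19.9% of all genes called). The count after oxaliplatin was 2 without oxaliplatin 1. Between the drugs it was 1 without oxaliplatin 1, oxaliplatin 2 or cisplatin 2, and 2 without cisplatin 1. Timp3, which encodes an inhibitor of these proteases, had normalised counts of 10894 and 11256 in control, 16543 and 15623 in oxaliplatin, and 12773 and 13480 in cisplatin. The oxaliplatin libraries were the highest. Timp3 rose after oxaliplatin (log2 0.54, SE 0.05, DESeq2 adjusted p = 5.2e-30) and after cisplatin (log2 0.25, DESeq2 adjusted p = 1.06e-06). It was higher in oxaliplatin than in cisplatin (log2 0.29, SE 0.05, DESeq2 adjusted p = 3.03e-09). Adam9 rose after cisplatin (log2 0.31, SE 0.05, DESeq2 adjusted p = 1.18e-07). It also rose after oxaliplatin (log2 0.18, DESeq2 adjusted p = 0.00357), a call kept in 12 of 14 alternatives. Adam12, with 1022 and 1169 normalised counts in control, 849 and 870 in oxaliplatin and 691 and 708 in cisplatin, fell after oxaliplatin (log2 -0.35, SE 0.10, DESeq2 adjusted p = 0.00441) and after cisplatin (log2 -0.65, SE 0.10, DESeq2 adjusted p = 1.19e-08). It was higher in oxaliplatin than in cisplatin (log2 0.30, SE 0.11, DESeq2 adjusted p = 0.0239). The oxaliplatin call of Adam12 was lost without control 2, oxaliplatin 1 or oxaliplatin 2 (DESeq2 adjusted p = 0.239, 0.138 and 0.0906). The difference between the drugs was lost without oxaliplatin 1, oxaliplatin 2, cisplatin 1 or cisplatin 2 (DESeq2 adjusted p = 0.196, 0.252, 0.258 and 0.165). The median log2 fold change of the list was -0.06 for oxaliplatin and 0.01 for cisplatin.

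Of 14 genes that restrain, degrade or recycle the receptors, 5 rose and 0 fell after oxaliplatin (10.7% of all genes rose and 9.5% fell), and 4 rose and 1 fell after cisplatin (15.7% and 12.4%). The 5 calls after oxaliplatin became 1 without oxaliplatin 1, 2 without control 1 or oxaliplatin 2, and 3 without cisplatin 1 or 2. The 5 calls after cisplatin became 1 without control 1, cisplatin 1 or cisplatin 2, 2 without oxaliplatin 1 or 2, and 3 without control 2. Other analyses also changed the number called in each direction after cisplatin, with 1 higher and 2 lower under total-count scaling and 5 higher and 3 lower by edgeR. Lrig1, a transmembrane protein that promotes receptor turnover, had 1368 and 1368 normalised counts in control, 1798 and 1780 in oxaliplatin and 1671 and 1768 in cisplatin. It rose after oxaliplatin (log2 0.39, SE 0.07, DESeq2 adjusted p = 1.63e-06) and after cisplatin (log2 0.33, SE 0.07, DESeq2 adjusted p = 5.32e-05). Its relative Lrig3 rose after oxaliplatin (log2 0.49, SE 0.11, DESeq2 adjusted p = 0.000184), a call that was lost without oxaliplatin 1 (DESeq2 adjusted p = 0.0667). Cblb, a ubiquitin ligase, fell after cisplatin (log2 -0.24, SE 0.09, DESeq2 adjusted p = 0.0378), and this call was lost without each of the 6 libraries (DESeq2 adjusted p = 0.129 to 0.363). Between the drugs, 2 genes were higher in oxaliplatin and 0 lower, against 8.62% and 11.3% of all genes. These were Lrig2 (log2 0.52, SE 0.15, DESeq2 adjusted p = 0.00455) and Socs5 (log2 0.21, SE 0.06, DESeq2 adjusted p = 0.00442). The Lrig2 call was lost without oxaliplatin 1, cisplatin 1 or cisplatin 2 (DESeq2 adjusted p = 0.243, 0.133 and 0.0902), and the Socs5 call without oxaliplatin 1, oxaliplatin 2 or cisplatin 1 (DESeq2 adjusted p = 0.158, 0.13 and 0.234). The median log2 fold change was 0.13 for oxaliplatin and 0.09 for cisplatin.

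The 27 genes of the intracellular relay (adaptors, RAS and RAF proteins, ERK and PI3K components) had medians close to that of all genes, at -0.03 and -0.01. After oxaliplatin 4 rose and 3 fell, and after cisplatin 7 rose and 1 fell. Set against cisplatin, oxaliplatin had 3 of them higher and 6 lower. Over all tested genes 20.2%, 28.1% and 19.9% were called in these comparisons. The 7 calls after oxaliplatin became 4 without control 1 or oxaliplatin 2, and 2 without oxaliplatin 1 (0 higher, 2 lower). The 8 calls after cisplatin became 1 without cisplatin 2, 2 without control 2, 4 without control 1 or cisplatin 1, and 5 without oxaliplatin 1 or 2. The 9 calls between the drugs became 3 without oxaliplatin 1 or 2, 2 without cisplatin 1 and 4 without cisplatin 2. Pik3r2, a regulatory subunit of PI3K, had 3712 and 3429 normalised counts in control, 2687 and 2654 in oxaliplatin and 3547 and 3467 in cisplatin. The oxaliplatin libraries stood apart at the low end. Pik3r2 fell after oxaliplatin (log2 -0.42, SE 0.06, DESeq2 adjusted p = 1.29e-10) and was lower there than in cisplatin (log2 -0.39, SE 0.06, DESeq2 adjusted p = 2.2e-09). Pik3cb, a catalytic subunit, rose after oxaliplatin (log2 0.38, SE 0.10, DESeq2 adjusted p = 0.000835) and was higher than in cisplatin (log2 0.33, SE 0.10, DESeq2 adjusted p = 0.00353). The first of these calls was lost without oxaliplatin 1 or 2 (DESeq2 adjusted p = 0.117 and 0.0563), and the other without oxaliplatin 1 or 2 or cisplatin 1 or 2 (DESeq2 adjusted p = 0.198, 0.0979, 0.178 and 0.079). Hras rose after cisplatin (log2 0.41, SE 0.10, DESeq2 adjusted p = 0.00022). Its call after oxaliplatin (log2 0.25, DESeq2 adjusted p = 0.0496) was kept in 3 of 14 alternatives. Rps6ka3, an ERK-activated kinase, fell after cisplatin (log2 -0.26, SE 0.08, DESeq2 adjusted p = 0.00696), but not without control 2, cisplatin 1 or cisplatin 2 (DESeq2 adjusted p = 0.264, 0.109 and 0.0968).

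Genes known to follow ERK activity gave the highest count of rises among the lists, which were chosen with earlier results of these data known. Of 16 tested, 9 rose and 0 fell after oxaliplatin and 10 rose and 0 fell after cisplatin, and 15 had a positive log2 fold change in each. Of all tested genes 10.7% rose and 9.5% fell after oxaliplatin, and 15.7% and 12.4% after cisplatin. The medians were 0.42 for oxaliplatin and 0.79 for cisplatin. Many of these genes also respond to other pathways, and leaving out each library in turn gave 7 to 9 calls for oxaliplatin and 8 for cisplatin. Between the drugs 0 were higher and 5 lower in oxaliplatin (8.62% and 11.3% of all genes), with a median of -0.26 over the list, while edgeR called 2 higher and 8 lower.

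Dusp6, a phosphatase that acts on ERK, had normalised counts of 236 and 268 in control, 525 and 430 in oxaliplatin, and 550 and 680 in cisplatin. The drug-treated libraries were all above the controls. Dusp6 rose after oxaliplatin (log2 0.92, SE 0.17, DESeq2 adjusted p = 1.44e-06) and after cisplatin (log2 1.29, DESeq2 adjusted p = 1.82e-12). Fosl1, a component of AP-1, had 540 and 623 in control, 1076 and 999 in oxaliplatin, and 1038 and 1095 in cisplatin. It shares 1163 bp of exon with the opposite-strand gene Ccdc85b (mean expected count 287), and the part of this overlap was not tested. Fosl1 rose after oxaliplatin (log2 0.84, SE 0.11, DESeq2 adjusted p = 7.42e-13) and after cisplatin (log2 0.88, DESeq2 adjusted p = 3.47e-14). Ier3, an immediate early gene, had 569 and 594 in control, 869 and 828 in oxaliplatin, and 1738 and 1829 in cisplatin. The 3 groups of Ier3 were separate, with cisplatin highest. Ier3 rose after oxaliplatin (log2 0.55, DESeq2 adjusted p = 1.77e-07) and after cisplatin (log2 1.62, SE 0.09, DESeq2 adjusted p = 4.61e-67). It was lower in oxaliplatin than in cisplatin (log2 -1.07, SE 0.09, DESeq2 adjusted p = 1.42e-31). Dusp4, another phosphatase of this family, had 353 and 365 in control, 555 and 543 in oxaliplatin, and 860 and 1032 in cisplatin. Dusp4 rose after oxaliplatin (log2 0.61, DESeq2 adjusted p = 5.49e-05) and after cisplatin (log2 1.40, SE 0.13, DESeq2 adjusted p = 2.05e-24). It was lower in oxaliplatin than in cisplatin (log2 -0.78, SE 0.13, DESeq2 adjusted p = 2.03e-08). Myc, Ccnd1 and Egr1 were named after their values were seen. Myc had log2 fold changes of 0.59 and 0.99 and Ccnd1, which encodes cyclin D1, of 0.39 and 0.95 after oxaliplatin and cisplatin. These 4 calls were kept in 14 of 14 alternatives. Ccnd1 shares 1100 bp of exon with the opposite-strand gene LTO1 (mean expected count 325). Egr1 rose after oxaliplatin (log2 0.43, DESeq2 adjusted p = 0.0327), a call kept in 7 of 14 alternatives. Its mean normalised count was 447 in control and 470 in cisplatin.

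Over all 73 genes of these 5 lists, 70 were tested. After oxaliplatin 21 rose and 5 fell, after cisplatin 24 rose and 4 fell, and between the drugs 8 were higher and 13 lower in oxaliplatin. The shares called over all tested genes were 20.2%, 28.1% and 19.9%. Leaving out 1 library gave fewer calls, as it did over all genes, where the 3028, 4203 and 2977 calls became 1213 to 2159, 2089 to 3021 and 1184 to 2453. The count of 26 after oxaliplatin became 17 without control 1, 12 without oxaliplatin 1 and 16 without oxaliplatin 2. The count of 28 after cisplatin became 13 without cisplatin 2 and 16 to 18 without each of the others. Between the drugs the count of 21 became 10 without oxaliplatin 1 or cisplatin 1, 11 without oxaliplatin 2 and 12 without cisplatin 2.

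**Figure D4:**
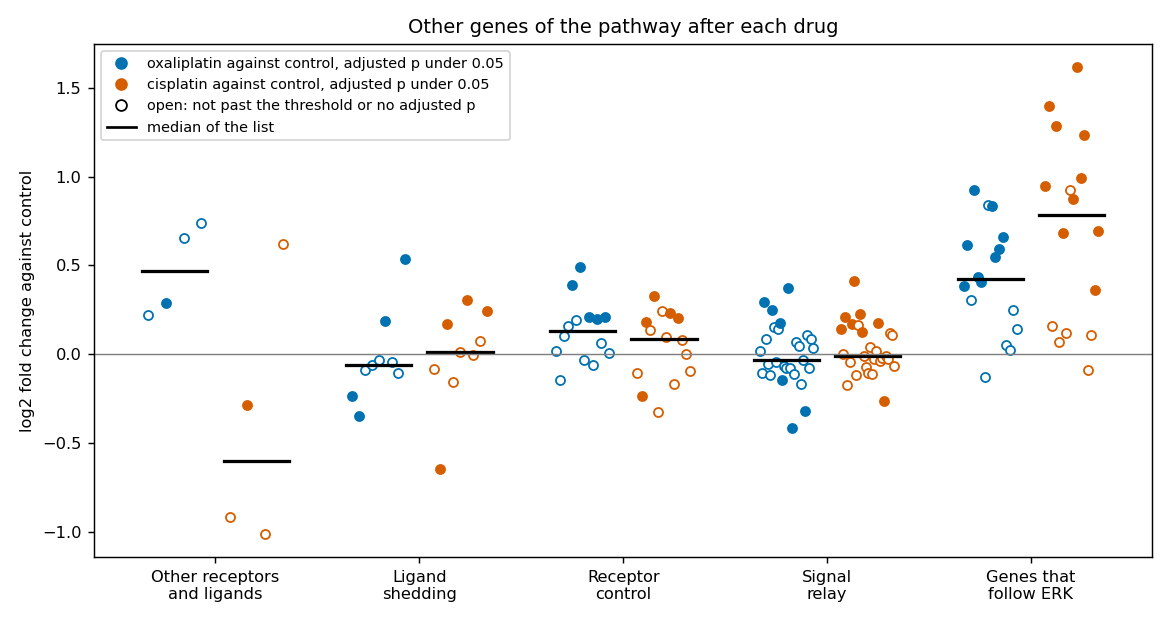
Log2 fold changes against control (y axis) of the tested genes in the 5 lists, oxaliplatin in blue and cisplatin in orange, with filled points for a DESeq2 adjusted p under 0.05 and black bars for medians. The genes that follow ERK lie highest, with medians of 0.42 and 0.79, while the medians of the shedding, control and relay lists are between -0.06 and 0.13. The median of the other receptors and ligands rests on 4 genes, of which Nrg1 alone passed the test.

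Finally, the genes whose pattern over the 6 libraries was most like that of a member were looked up among 10725 genes with a mean of at least 100 normalised counts. Likeness was the root mean square (RMS) difference of centred log2 values. Nearest to Ereg were Edn1 (0.11), Tnfsf18 (0.13) and Plk2 (0.15), beside a median RMS difference of 0.71 over all genes compared. Nearest to Hbegf were Mafk (0.014), Pvr (0.040) and Nfkb2 (0.046), beside a median of 0.37. For Btc these were Grina (0.020), Slbp (0.037) and Rflnb (0.040), beside 0.28. For Egfr they were Mpp2 (0.013), Tnrc6c (0.021) and Arsj (0.022), and for Erbb2 Ip6k1 (0.019), Arhgef10 (0.021) and Ttll1 (0.024), beside medians of 0.22 and 0.20. The 6 points share their libraries and fall into 3 groups, so that these distances are a description. With a minimum of 500 normalised counts, 1 of the 3 genes listed for Ereg remained, namely Plk2, which then ranked first. Edn1 and Tnfsf18 have means below this minimum and could not remain.

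**Figure D5:**
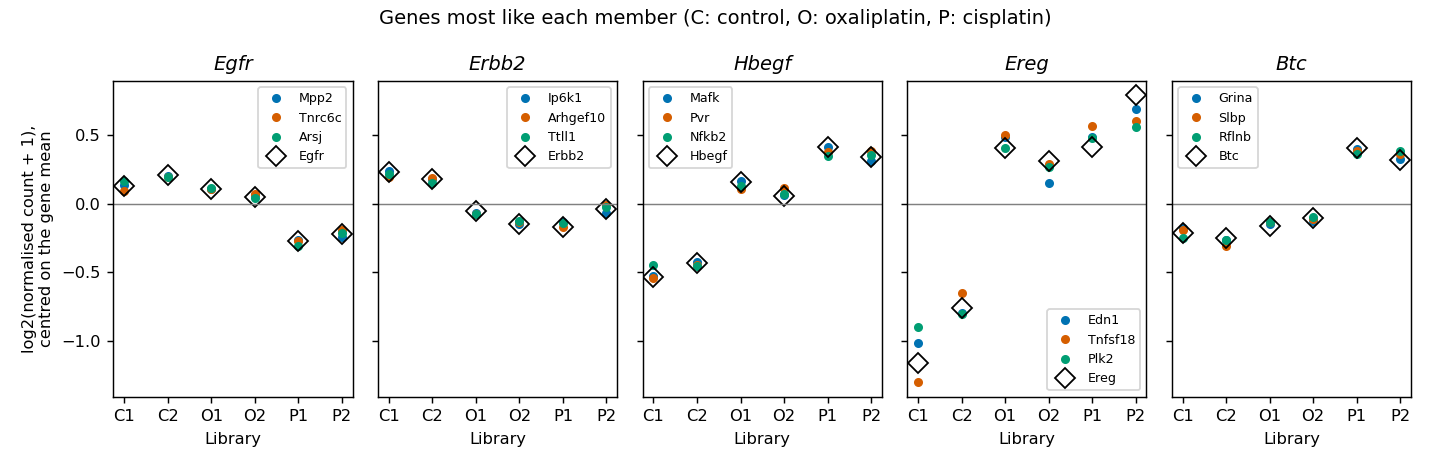
Log2(normalised count + 1), centred on each gene's mean (y axis), in the 6 libraries (x axis, C control, O oxaliplatin, P cisplatin) for 5 members (open diamonds) and the 3 genes most like each (dots). Dots and diamonds lie close together for Egfr, Erbb2, Hbegf and Btc and farther apart for Ereg, whose nearest gene is at 0.11.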

How the data were processed

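Poly(A) RNA libraries of TRAMP-C2 cells (2 control, 2 oxaliplatin, 2 cisplatin) were analysed, grouped by their labels. The authors deposited expected counts per gene from RSEM, which divides reads matching several genes among them, with no scaling between libraries. The submitters' processing notes name STAR 2.5.3a, RSEM 1.3.0 and GRCm38.p6. The kit is stranded, but whether counting used strand is not given in the sources used here, so that overlapping and antisense genes are uncertain. The study's methods name another counting program. In each library 7977 to 8235 values had a decimal part.

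Symbols were matched by identifier without version to GENCODE M21 (54409 genes). Members, lists and tests were chosen with earlier results of these data known. Expected counts were rounded, a gene needed 10 or more counts in 2 or more libraries (14956 genes), and DESeq2 (version 1.42.0, R 4.3.3) was fitted to all 6 libraries by group, with size factors of 0.964 to 1.08. Wald tests were two-sided and Benjamini-Hochberg adjusted within each contrast, with a threshold of 0.05 and independent filtering at the default of 0.1. Intervals are 95% and come from the SE. The fit was tested on simulated data.

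Besides the 8 members, the rule for named genes took, from each list and contrast, the 2 called genes with the largest absolute log2 fold change, and each called gene of the list of other receptors and ligands. Alternatives were edgeR (version 4.0.16), TMM or total-count scaling, other filters, a replicate block, only the 4 libraries compared, and leaving out each library. Chi-square averaged over genes was 2.83 to 4.73 between the libraries of a group, above counting noise alone. Each library was counted as 1 sample. The chi-square cannot tell whether the libraries are separate cultures, since such a spread may be technical. Promoters and start sites came from RefSeq. Some marker genes are not reported here.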

Additional observations from a re-analysis of the deposited data

How the results depend on the processing

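Under 14 alternatives in each contrast, the calls of Hbegf and Ereg against control and of Egfr after cisplatin and between the drugs were kept. The log2 fold changes of Erbb2 against control and of Btc in their called comparisons kept their direction, while calls were lost when 1 library was left out, as given above. Directions turned only where no call was made. Leaving out 1 library gave log2 values of -0.25 to 0.066 for Erbb3 after oxaliplatin, above 0 without oxaliplatin 1. Erbb2 between the drugs ran from -0.060 to 0.068, below 0 without oxaliplatin 1 (-0.05) or cisplatin 1.

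The edgeR test called 4618 of all genes after oxaliplatin and 4773 between the drugs (DESeq2, 3028 and 2977), and between the drugs 32 pathway genes and 10 genes that follow ERK. The labels number the replicates, but the differences between replicates 1 and 2 correlated across genes at only 0.07, -0.05 and -0.19 between pairs of groups. These values show no strong effect shared in 1 direction by replicate number. Whether the numbers pair the libraries cannot be told from them. With a replicate block, 1958 of all genes were called after oxaliplatin, 1861 between the drugs, 18 pathway genes after cisplatin, and 1 member between the drugs, where the Btc call was lost (DESeq2 adjusted p = 0.121). The block also removed both Erbb2 calls against control (DESeq2 adjusted p = 0.0768 and 0.0583) and no other call of a member. With the cisplatin numbers crossed, an analysis chosen after seeing the data, 1256 genes and 1 member were called between the drugs.

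Leaving out 1 library gave 1213 to 2159 calls over all genes after oxaliplatin, 2089 to 3021 after cisplatin and 1184 to 2453 between the drugs. For the members the ranges were 2 to 3, 3 to 5 and 1 to 1, for the pathway genes 12 to 21, 13 to 18 and 10 to 20, and for genes that follow ERK 7 to 9, 8 to 8 and 5 to 5. Where a group was left with 1 library, that library was assumed to vary like the others. Total-count scaling called 4200 genes after cisplatin, 43.4% of them higher (56.0% in the main analysis), and 2986 between the drugs, 54.3% higher (43.3%), with medians over all genes of -0.05 and 0.03. For Erbb3 and Tgfa, with few counts, the intervals were wide, and Areg was not tested. The cause of these changes, including those where fewer libraries were fitted, was not tested.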
